A study of Mus musculus with 20 samples.

Results

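The clustered protocadherin genes of the mouse lie side by side on chromosome 18 in 3 arrays, alpha, beta and gamma. The members were the protein-coding genes on chromosome 18 of the mm10 annotation (GRCm38.p6) whose symbols begin with Pcdha, Pcdhb or Pcdhg. This rule gave 57 of the 21883 protein-coding genes on chromosomes 1 to 19, X and Y. The alpha cluster held 14 members, the beta cluster 22 and the gamma cluster 21. The 5 C-type members were Pcdhac1, Pcdhac2, Pcdhgc3, Pcdhgc4 and Pcdhgc5. The other 52, called alternate members here, comprised 12 alpha genes, the 22 beta genes, 12 gamma A genes and 6 gamma B genes.

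Clustered protocadherins are cadherin-like adhesion proteins on the surface of neurons, where matching sets of isoforms let the neurites of one neuron recognise each other. Each alpha and gamma gene contributes 1 large variable first exon with a promoter of its own, which is spliced to constant exons shared by the cluster, whereas each beta gene stands alone. Single neurons choose alternate promoters in varying combinations, with CTCF, cohesin and distant enhancers involved in the choice, while C-type promoters are used more uniformly within a neuron type.

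The libraries were CUT&Tag libraries, in which an antibody tethers a transposase to a chromatin protein or histone modification so that nearby DNA is released and sequenced. Nuclei came from ganglia labelled CVG (in inner ear work, the cochleovestibular ganglion, the source of auditory and vestibular neurons) of C57BL/6J embryos collected at E11.5 (E for embryonic day). All groups shared this strain, age and tissue, no allele or agent is named for any of them, and they differed in the antibody: ISL1 and POU4F1, homeodomain transcription factors of sensory neurons; H3K4me3, a modification of promoters; H3K27me3, the Polycomb modification; and H3K27ac, a modification of active promoters and enhancers. Of 20 samples, 14 had a peak list, namely 4 for ISL1 (ISL1_26 replicate 1 and ISL1_70 replicates 1 to 3), 2 for POU4F1, 2 for H3K4me3, 3 for H3K27me3 and 3 for H3K27ac, and 6 IgG libraries were not analysed here. What 26 and 70 mean is not stated in the labels, nor whether replicates came from separate embryos, so the spread between replicates may be technical.

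The lists held between 8855 peaks (H3K27ac replicate 1) and 168144 peaks (H3K27ac replicate 3). Read totals are unknown, so the absence of a peak says only that none was called. A peak's fold enrichment and q-value are the authors' own and serve here only to rank peaks within a list. The library labelled H3K4me3 replicate 1 went against its label: of its peaks, 87.4% overlapped a peak of H3K27me3 replicate 3 and 72.0% a peak of H3K27me3 replicate 2, but 13.3% a peak of H3K4me3 replicate 2. H3K27me3 replicate 1 stood apart as well: 32.1% of its peaks overlapped H3K27me3 replicate 3, against 91.5% of those of H3K27me3 replicate 2. Its peaks lay to 28.9% in H3K27me3 replicate 2, to 39.8% in H3K27ac replicate 2 and to 13.3% in H3K27ac replicate 1. Those lists differ in length (14140, 106628 and 8855 peaks), so these shares cannot be compared directly. Markers for the tissue were checked by H3K27ac within 1 kb of the gene start in at least 2 libraries. It was present at 6 of 9 inner ear sensory neuron markers (Neurog1, Neurod1, Isl1, Pou4f1, Tubb3 and Elavl4, not Ntrk2, Ntrk3 or Gata3), against 45.0% of all genes, at 3 of 4 glia and neural crest markers, 2 of 4 otic epithelium markers, 1 of 4 mesenchyme markers and 1 of 4 endothelium and blood markers. H3K27me3 was present in at least 2 libraries at 8 of the 9 neuron markers, all but Elavl4, against 17.5% of all genes. It was also present at 4 of 4 mesenchyme markers, 3 of 4 glia and neural crest markers, 2 of 4 otic epithelium markers and 1 of 4 endothelium and blood markers. A high share was thus not particular to the neuron markers. The part that cells other than neurons played in the results was not tested.

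A member was counted as marked by a library when a peak overlapped the window of 1 kb on each side of its start, where the variable exon begins. In at least 1 of the 14 libraries, 37 of the 57 members were marked (64.9%), against 77.7% of 17491 protein-coding genes with a known strand, which serve as the background throughout. All 5 C-type members were marked in some library, against 32 of 52 alternate members. Among alternate members the 18 gamma genes were all marked, as were 9 of 12 alpha genes but only 5 of 22 beta genes (22.7%). The beta genes that carried a peak were Pcdhb1, Pcdhb4, Pcdhb15, Pcdhb20 and Pcdhb21.

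**Figure D1:**
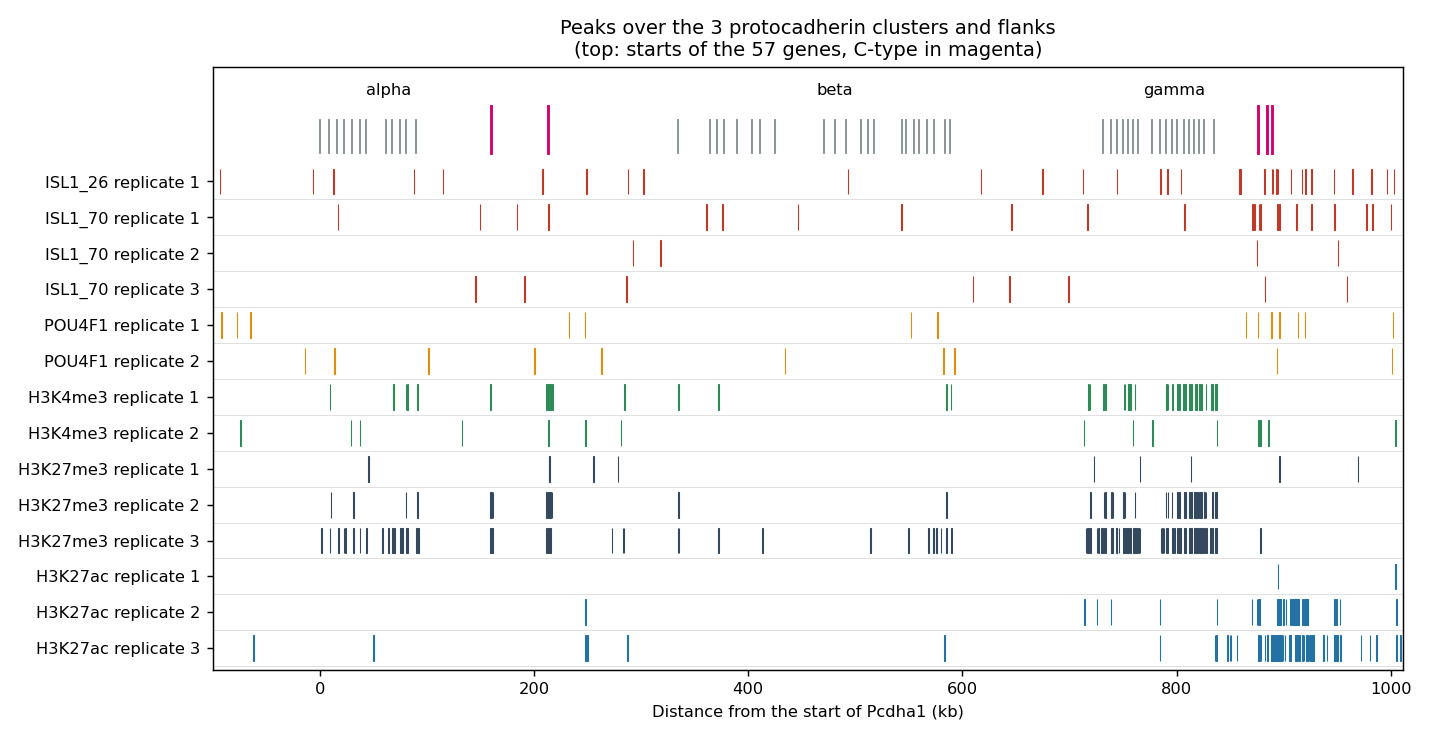
Peaks of each of the 14 libraries (rows) over the 3 clusters and 100 kb on each side; the x axis is the distance from the start of Pcdha1 in kb, and the ticks on top are the starts of the 57 genes (C-type in magenta). H3K27me3 replicates 2 and 3 fill the gamma array of alternate genes with 23 and 32 peaks, and H3K27ac replicates 2 and 3 lie mostly at the right-hand end, in the C-type part of the gamma cluster and beyond it.

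H3K27me3 was the modification found at the most members, and most of it lay on the gamma alternate genes. By library it marked 1 member in replicate 1 (25.2% of all genes), 16 in replicate 2 (17.0% of all genes) and 29 in replicate 3 (22.4% of all genes). All 16 members marked in replicate 2 were also marked in replicate 3. In at least 2 libraries, 16 of 57 members were marked (28.1%), against 17.5% of all genes, and the 16 were Pcdhac1, Pcdhac2, 12 gamma alternate genes, Pcdha11 and Pcdhb1. As shares of their classes these were 2 of 5 C-type members (40.0%) and 14 of 52 alternate members (26.9%). Among alternate members the count was 12 of 18 for gamma (66.7%), 1 of 12 for alpha (8.33%) and 1 of 22 for beta (4.55%). In bulk samples, a mark on few cells and a weak mark on many cannot be told apart. Without replicate 1 the count stayed at 16, whereas without replicate 2 or without replicate 3 it was 1, the gene Pcdhac2.

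**Figure D2:**
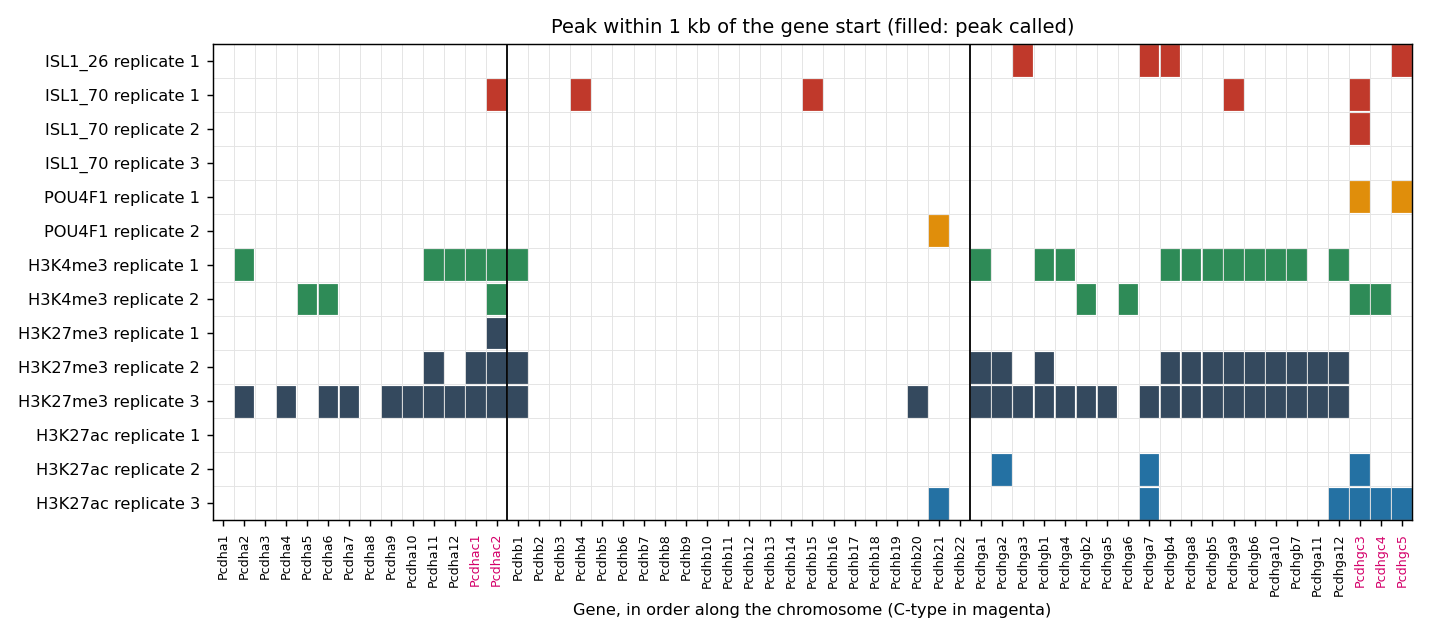
Presence of a peak within 1 kb of the start of each of the 57 genes (columns, in order along the chromosome, C-type names in magenta) in each of the 14 libraries (rows); vertical lines separate the alpha, beta and gamma clusters. The beta block is nearly empty, and the H3K27me3 replicate 2 and 3 rows are filled through most of the gamma block up to Pcdhga12 and empty at Pcdhgc3, Pcdhgc4 and Pcdhgc5.

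Within the gamma array the modification was present at both subfamilies, 7 of 12 gamma A genes and 5 of 6 gamma B genes in at least 2 libraries. In any library H3K27me3 marked 29 members (40.2% of all genes), among them 17 of the 18 gamma alternate genes, and Pcdhga6 was the exception. The covered share of each variable exon, taken as the 2.5 kb from the gene start, shows how far this marking varied between neighbouring genes. In replicate 3 the peaks covered the whole of this stretch at Pcdhgb6, Pcdhga10 and Pcdhgb7, 99.4% at Pcdhgb1, 54.6% at Pcdhga7 and 34.9% at Pcdhga8. In replicate 2 the same genes had 95.8% at Pcdhgb6, 83.6% at Pcdhga10, 96.6% at Pcdhgb7, 61.0% at Pcdhgb1, 0 at Pcdhga7 and 17.1% at Pcdhga8. Replicate 1 covered 13.7% of Pcdhgb6 and 13.1% of Pcdhga5 and none of the other 16 genes. The last 5 genes before the C-type exons, from Pcdhgb6 to Pcdhga12, were covered to at least 81.2% in replicate 3 and to between 44.2% and 96.6% in replicate 2. The gamma alternate genes before them ranged from 0 to 99.4% in replicate 3 and from 0 to 61.0% in replicate 2, so the ranges overlapped.

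The named gamma genes show the pattern by the strongest peak of each library that overlapped the 1 kb window. Pcdhga12 (chr18:37765580-37841873, gene ID 93724), the last alternate gene before the C-type exons, had an H3K27me3 peak of 2475 bp in replicate 3 and one of 2383 bp in replicate 2, and none in replicate 1. Pcdhga9 (start 37736936) had peaks of 1961 bp and 913 bp in those 2 libraries, and its replicate 3 peak ranked in the top 15.6% of that list by q. Pcdhgb4 (start 37720376) had peaks of 2189 bp and 301 bp, ranked in the top 16.4% and the top 74.9% of their lists. Both genes were marked over much of the exon in replicate 3 and over less of it in replicate 2. Pcdhgb1 (start 37680272) had peaks of 2537 bp and 731 bp. Pcdhgb5 (start 37730971) had peaks of 1097 bp and 362 bp. At each of these 5 genes the replicate 3 peak was the longer. Pcdhga7 (start 37714834) differed from them. Its window held 1 H3K27me3 peak, of 509 bp in replicate 3. A further replicate 3 peak lay deeper in the exon, outside the window (chr18:37716448-37717302). Pcdhga7 also had H3K27ac peaks of 276 bp in replicate 2 and 472 bp in replicate 3.

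Cover was higher on the exon side of the start than before it, although the strongest replicate 3 peak at Pcdhga1 and the replicate 3 summit at Pcdhga3 lay upstream, with summits at -1070 and -144 bp. Over the gamma alternate genes, H3K27me3 replicate 3 covered 77.8% of the first 1 kb after the start and 13.0% of the 1 kb before it. Replicate 2 covered 47.0% after the start and 1.90% before it. Over the whole 2.5 kb after the start the gamma alternate genes were covered to 72.5% in replicate 3 and to 41.7% in replicate 2, against 14.0% and 11.2% for all genes. The 1 kb before the start was covered to 12.3% in replicate 3 and to 9.47% in replicate 2 for all genes. The step in cover at the start was thus wider at the gamma alternate genes than over all genes in both libraries, and the difference was not tested. Replicate 1 covered 1.49% of the 2.5 kb at the gamma alternate genes, against 4.67% for all genes. Gamma B exons were covered to 92.3% in replicate 3 and to 59.3% in replicate 2, and gamma A exons to 62.6% and 33.0%.

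Cover within the exon had a dip, read at positions chosen after the profile was seen. In H3K27me3 replicate 3, 15 of the 18 gamma alternate genes were covered at 500 bp after the start, 8 at 1200 bp and 16 at 2000 bp. In H3K27me3 replicate 2 these counts were 11, 3 and 11. At 3500 bp, 1 gene was covered in replicate 3 and none in replicate 2. The alpha alternate genes had the same shape in replicate 3, with 8, 3 and 8 of 12 genes covered at the 3 positions. How reads that match several of these similar exons were placed is not given in the sources used here, and its part in the dip was not tested.

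**Figure D3:**
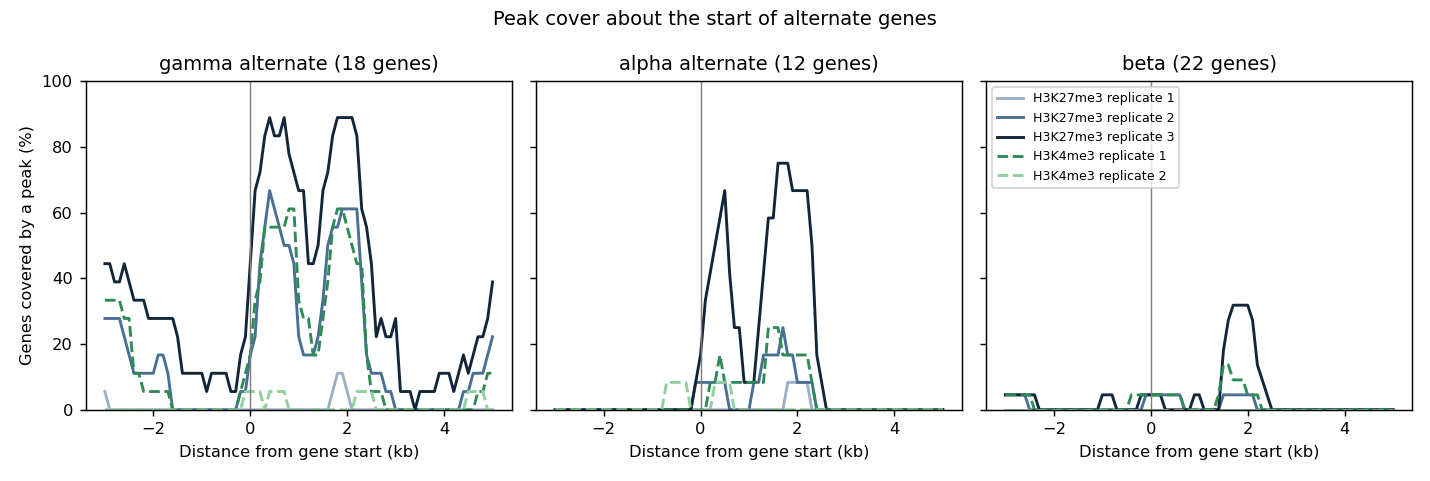
Share of alternate genes covered by a peak (y axis, %) against the distance from the gene start (x axis, kb) for gamma, alpha and beta alternate genes; solid lines are H3K27me3 replicates 1 to 3 and dashed lines are the libraries labelled H3K4me3 replicates 1 and 2. In the gamma panel, cover by H3K27me3 replicates 2 and 3 is low over the 1 kb before the start and high after it. It dips near 1200 bp and is low again at 3500 bp, and H3K4me3 replicate 1 runs with H3K27me3 replicate 2. H3K27me3 replicate 1 and H3K4me3 replicate 2 stay low on both sides of the start.

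The alpha alternate exons carried H3K27me3 mainly in replicate 3. There all 12 exons had a peak within 2.5 kb after the start and 44.6% of that length was covered, against 14.0% for all genes. Replicate 2 reached 4 of 12 exons and 8.32%, below the 11.2% for all genes. The share of all genes with a peak in this stretch is not given here, so the counts of exons have no background. Replicate 3 also had 17 peaks in the alpha array, where they covered 8.94% of the sequence, 5.05 times the share covered over all chromosomes. Replicate 2 had 4 peaks there. Pcdha11 (chr18:37010858-37187657, gene ID 12942) was the alpha alternate gene with peaks in most libraries, with H3K27me3 peaks of 999 bp in replicate 3 and 636 bp in replicate 2 and a peak of 317 bp in H3K4me3 replicate 1. Pcdha2 (start 36939205) had a peak of 421 bp in H3K27me3 replicate 3 and one of 650 bp in H3K4me3 replicate 1. Pcdha6 (start 36967625) had a peak of 343 bp in H3K27me3 replicate 3 and one of 422 bp in H3K4me3 replicate 2, both in the lowest part of their lists, in the top 89.2% and the top 96.9%. No alpha alternate gene was marked by ISL1, POU4F1 or H3K27ac in any library.

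The beta genes were the least marked. In H3K27me3 replicate 3, 9 of 22 beta genes had a peak within 2.5 kb after the start and 9.97% of that length was covered, against 14.0% for all genes. In replicate 2 a peak was present at 2 of the 22 genes. Pcdhb1 (chr18:37264998-37267454, gene ID 93872), the first gene of the cluster, had peaks of 464 bp (the stronger of 2) in H3K27me3 replicate 3, 769 bp in H3K27me3 replicate 2 and 1101 bp in H3K4me3 replicate 1. Pcdhb21 (start 37513652) had a POU4F1 replicate 2 peak of 636 bp and an H3K27ac replicate 3 peak of 456 bp. H3K27me3 covered 29.1% in replicate 2 and 36.6% in replicate 3 of the 2.5 kb after its start, outside the 1 kb window. Pcdhb4 (start 37307455) had an ISL1_70 replicate 1 peak whose summit lay upstream, at -1254 bp from the start. H3K27ac had no peak in the 256.4 kb beta cluster in replicates 1 and 2 and 1 peak in replicate 3.

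Over whole stretches, H3K27me3 and H3K27ac differed between the gamma array of alternate genes and the C-type and constant part that follows it. The gamma array of alternate genes (143.6 kb) was covered by H3K27me3 to 0.466%, 14.1% and 27.6% in replicates 1 to 3, and by H3K27ac to 0, 1.05% and 2.59% in replicates 1 to 3. The share covered by H3K27me3 in replicates 2 and 3 was 14.8 and 15.6 times that over all chromosomes. In the next 36.5 kb, from 1 kb before Pcdhgc3 to the end of the cluster (chr18:37805410-37841873), H3K27me3 covered 0.601%, 0 and 1.78%, and H3K27ac covered 1.25%, 30.8% and 36.2%. The H3K27ac shares there were 5.69, 10.7 and 9.26 times those over all chromosomes. This stretch, called the C-type part, includes the constant exons, and its longest H3K27ac peaks lay past the start of Pcdhgc5. The change was not placed at the C-type boundary. The last H3K27me3 peaks of the array ended at 37768360 in replicate 2 and 37768301 in replicate 3, well before Pcdhgc3. H3K27ac replicate 3 had peaks between, such as chr18:37786286-37787098. H3K27me3 was therefore high in the array and low in the C-type part in replicates 2 and 3, while H3K27ac was the reverse in its replicates 2 and 3. H3K27ac replicate 1 had only 1 peak in the C-type part and 0 in the array.

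The C-type genes differed from each other by cluster. Pcdhac2 (chr18:37143678-37187663, gene ID 353237), known in mouse for a role in the spacing of serotonergic axons, was the 1 member with H3K27me3 in all 3 libraries. Its strongest H3K27me3 peaks measured 364 bp in replicate 1, 3451 bp in replicate 2 and 2953 bp in replicate 3, and the last of these ranked in the top 4.05% of its list. Replicates 2 and 3 covered all of the 2.5 kb after its start and replicate 1 covered 27.6%. Pcdhac2 was also the 1 member marked in both H3K4me3 libraries, with peaks of 3458 bp (the stronger of 2) in replicate 1 and 1095 bp in replicate 2, against 5.68% of all genes marked in both. H3K27me3 in at least 2 libraries together with H3K4me3 replicate 2 was found at this 1 member, against 5.61% of all genes. It carried an ISL1_70 replicate 1 peak of 1040 bp, ranked in the top 6.87% of that list, and no H3K27ac peak in any of the 3 libraries.

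Pcdhac1 (chr18:37090136-37187657, gene ID 353236), the other C-type alpha gene, had H3K27me3 peaks of 1888 bp in replicate 2 and 2756 bp in replicate 3 and none in replicate 1. The replicate 3 peak ranked in the top 8.90% of its list, and cover of the 2.5 kb after the start was 76.9% in replicate 3 and 65.3% in replicate 2. Its only other mark was a peak of 666 bp in H3K4me3 replicate 1. Both C-type alpha genes thus carried H3K27me3 in replicates 2 and 3 and neither carried H3K27ac.

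Each of the 3 C-type gamma genes had H3K27ac in at least 1 library and no H3K27me3 within 1 kb of the start. For Pcdhgc4 and Pcdhgc5 the H3K27ac was in replicate 3 alone, the longest list. With H3K27ac in any library at 3 of 5 C-type genes (60.0%), against 61.1% of all genes, their count was near the background. Pcdhgc3 (chr18:37806410-37841873, gene ID 93706), whose product in mouse cortex promotes dendrite branching and binds Axin1, had H3K27ac peaks of 1116 bp (the stronger of 2) in replicate 2 and 1705 bp in replicate 3 and none in replicate 1. They ranked in the top 16.0% and the top 17.8% of their lists. Pcdhgc3 also had an H3K4me3 replicate 2 peak of 2215 bp, a POU4F1 replicate 1 peak of 354 bp and 1 peak each in ISL1_70 replicates 1 and 2. The ISL1 peaks lay on opposite sides of the start and did not overlap (chr18:37806891-37807187 in replicate 1 and chr18:37804998-37805492 in replicate 2). H3K27me3 replicate 3 covered 25.9% of the 2.5 kb after the start of Pcdhgc3, outside the 1 kb window.

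Pcdhgc4 (chr18:37815079-37841873, gene ID 93707), the isoform that developing mouse neurons need for survival, had a peak of 681 bp in H3K4me3 replicate 2 and one of 599 bp in H3K27ac replicate 3, and no factor peak. Its H3K4me3 peak was among the weakest of that list, in the top 94.3%. Pcdhgc5 (chr18:37819546-37841873, gene ID 93708) had 2 H3K27ac replicate 3 peaks, the stronger of 367 bp, 2 ISL1_26 replicate 1 peaks, the stronger of 372 bp, and a POU4F1 replicate 1 peak of 575 bp, and neither H3K4me3 library marked it. H3K27me3 covered none of the 2.5 kb after the start of Pcdhgc4 or Pcdhgc5 in any library.

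**Figure D4:**
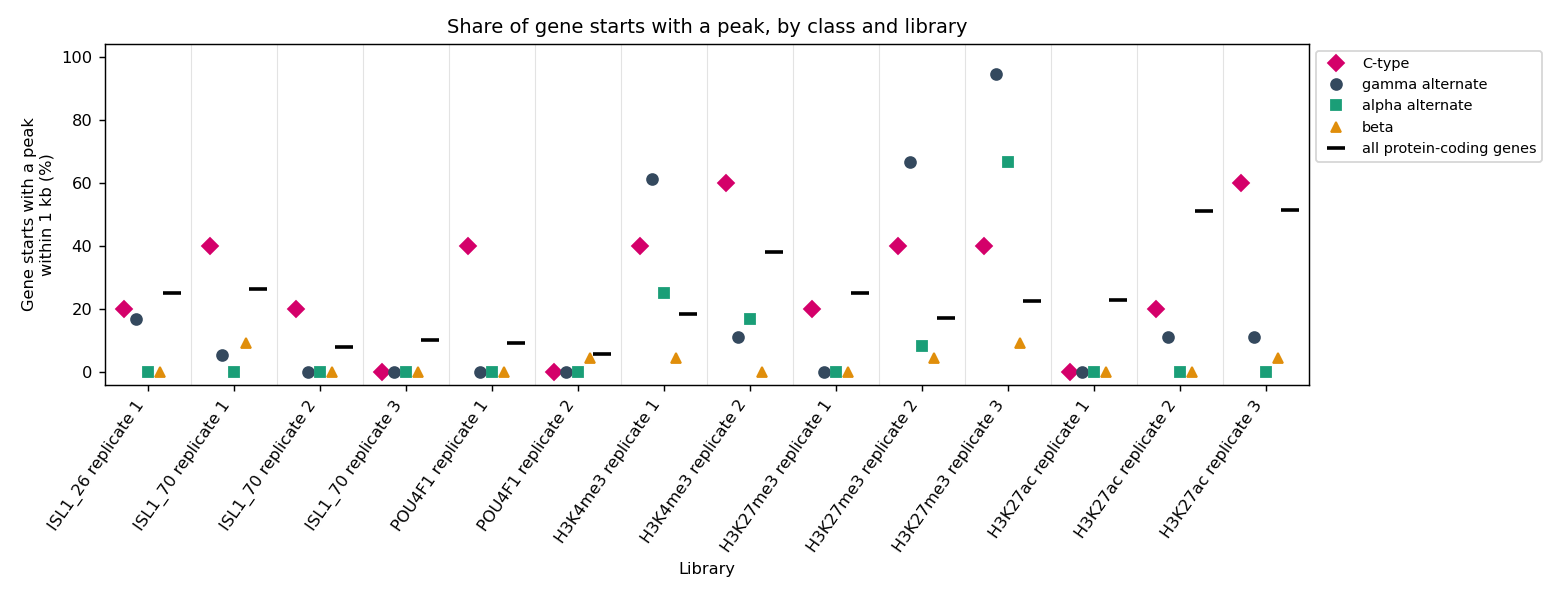
Share of gene starts with a peak within 1 kb (y axis, %) in each of the 14 libraries (x axis) for the 5 C-type, 18 gamma alternate, 12 alpha alternate and 22 beta genes; black bars are all protein-coding genes. Gamma alternate genes reach 66.7% and 94.4% in H3K27me3 replicates 2 and 3, above the bars, and beta genes stay at or below 9.09% in every library.

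H3K27ac marked few members. The counts were 0 in replicate 1 (22.9% of all genes), 3 in replicate 2 (51.0% of all genes) and 6 in replicate 3 (51.4% of all genes). In at least 2 libraries it marked Pcdhgc3 and Pcdhga7, 3.51% of members against 45.0% of all genes. In any library it marked 7 members (61.1% of all genes): Pcdhgc3, Pcdhgc4, Pcdhgc5, Pcdhb21, Pcdhga2, Pcdhga7 and Pcdhga12. Of these, Pcdhga2 and Pcdhga12 also carried H3K27me3 in at least 2 libraries. The share of members marked, divided by the share of all genes marked in the same library, was 0.0697, 1.65 and 2.27 in H3K27me3 replicates 1 to 3 and 0, 0.103 and 0.205 in H3K27ac replicates 1 to 3. H3K27me3 replicate 1 fell inside the H3K27ac range, so the groups overlapped. The mean was 1.33 ± 1.13 for H3K27me3 and 0.103 ± 0.102 for H3K27ac (SD, n = 3 each), and the difference was 1.23. A two-sided exact permutation test gave p = 0.3, but 3 against 3 libraries cannot go below 0.1, so the test could not have passed 0.05.

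The H3K4me3 libraries gave different members. The library labelled replicate 1 marked 17 members (18.3% of all genes) and replicate 2 marked 7 (38.1% of all genes), and they shared Pcdhac2 alone, so that 23 members were marked in either (50.7% of all genes). Of the 17 members of replicate 1, 14 were marked in H3K27me3 replicate 2 and all 17 in H3K27me3 replicate 3, where they made up 87.5% of 16 and 58.6% of 29 members. H3K4me3 replicate 1 also covered the gamma alternate exons more after the start than before it, as H3K27me3 replicates 2 and 3 did. It covered 49.8% of the first 1 kb after the start and 2.52% of the 1 kb before it. H3K27me3 replicate 1 covered 0% of that first 1 kb. The 7 members of H3K4me3 replicate 2 were Pcdhac2, Pcdhgc3, Pcdhgc4, Pcdha5, Pcdha6, Pcdhgb2 and Pcdhga6, which is 3 of 5 C-type members (60.0%) and 4 of 52 alternate members. Replicate 2 covered 47.1% of the first 1 kb after the start of C-type genes and 3.53% of that of gamma alternate genes.

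ISL1 and POU4F1 peaks at the gene starts were few. ISL1_26 replicate 1 marked 4 members (24.9% of all genes), and ISL1_70 replicates 1 to 3 marked 5 (26.2% of all genes), 1 (7.88% of all genes) and 0 (10.1% of all genes). POU4F1 replicates 1 and 2 marked 2 (9.04% of all genes) and 1 (5.60% of all genes). Pcdhgc3 was the 1 member marked by ISL1 in at least 2 libraries, against 17.1% of all genes, and no member was marked in both POU4F1 libraries, against 0.726% of all genes. In any library ISL1 marked 9 members (47.2% of all genes) and POU4F1 marked 3 (13.9% of all genes). At least 1 factor library marked 10 members (52.1% of all genes), of which 3 were C-type (Pcdhac2, Pcdhgc3 and Pcdhgc5) and 7 alternate (Pcdhb4, Pcdhb15, Pcdhb21, Pcdhga3, Pcdhga7, Pcdhga9 and Pcdhgb4). The share of members over that of all genes averaged 0.210 ± 0.147 in ISL1 libraries (SD, n = 4) and 0.351 ± 0.0527 in POU4F1 libraries (SD, n = 2), and the difference was -0.141. A two-sided exact permutation test gave p = 0.267, but the design cannot go below 0.133, so this test could not have passed 0.05 either.

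Away from gene starts, regions called in at least 2 libraries lay mostly at the 3′ end of the gamma cluster and beyond it. Overlapping peaks of the same target (1 bp or more) were joined into regions. A region counted as distal if it lay over 2.5 kb from every protein-coding gene start. For genes without a known strand, other than members, both ends counted as starts. H3K27ac peaks at the end of the gamma cluster (chr18:37838109-37843495 in replicate 2 and chr18:37840917-37843920 in replicate 3) were left out for this reason. A distal region with peaks in at least 2 libraries was called a distal replicated region. The span from 100 kb before Pcdha1 to 100 kb beyond the gamma cluster (1111.6 kb) held 8 such regions for H3K27ac, 3 for ISL1, 1 for H3K27me3 and none for H3K4me3 or POU4F1. Per Mb this was 7.20 for H3K27ac and 2.70 for ISL1, against 14.4 for H3K27ac and 6.22 for ISL1 over all chromosomes. These densities use whole lengths, although gene starts lie close together in the arrays. Up to Pcdhga12 the gamma array leaves little sequence over 2.5 kb from a gene start. Counts there, and in the span, are thus limited in part by the definition. Of the 8 H3K27ac regions, 3 lay in the C-type part of the gamma cluster (82.3 per Mb), 4 in the 100 kb beyond it (40.0 per Mb) and 1 in the 3′ part of the alpha cluster. Of the 3 ISL1 regions, 1 lay in the C-type part of the gamma cluster and 2 beyond it, and each was formed by ISL1_26 replicate 1 and ISL1_70 replicate 1. The 100 kb before Pcdha1 held none of any target.

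**Figure D5:**
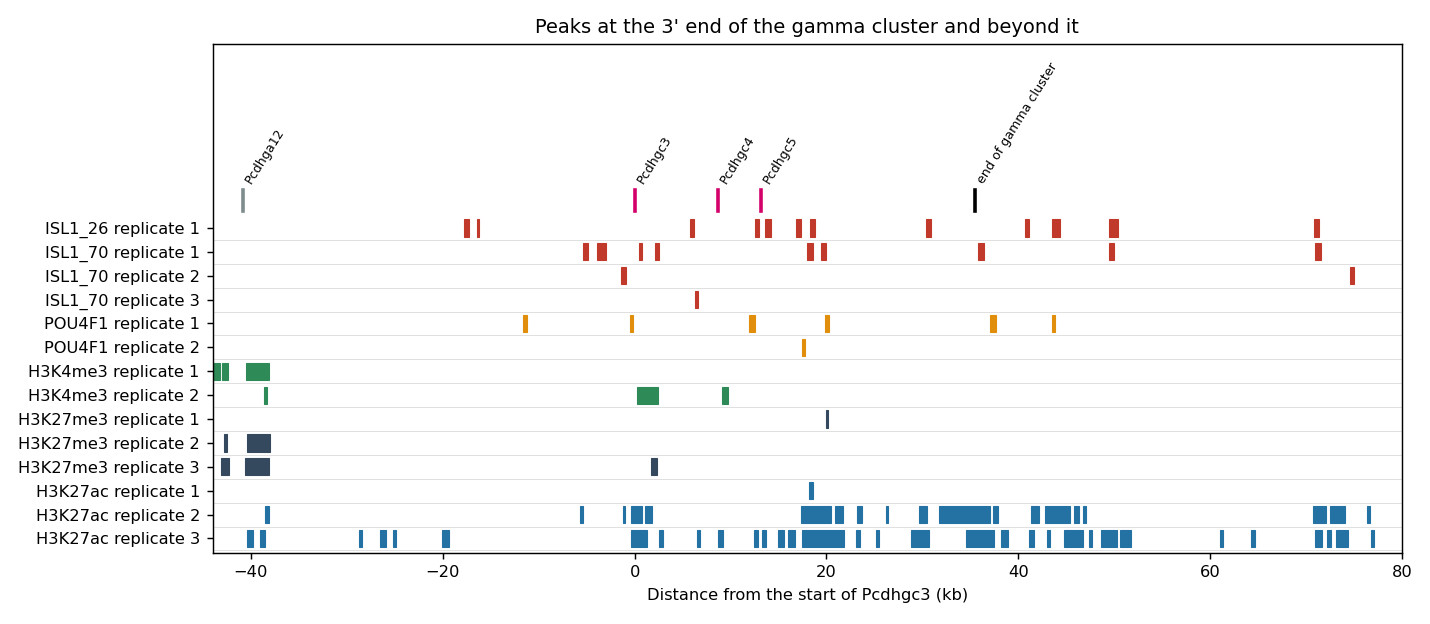
Peaks of the 14 libraries (rows) around the C-type gamma exons; the x axis is the distance from the start of Pcdhgc3 in kb, and the ticks on top are gene starts (C-type in magenta) and the end of the gamma cluster. H3K27me3 replicates 2 and 3 are present at Pcdhga12 on the left. H3K27ac replicates 2 and 3 lie mostly from Pcdhgc3 past the end of the cluster, with fewer peaks before it, and ISL1 and POU4F1 peaks lie among them.

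With the lists merged over all targets, the span held 188 regions, 96 of them distal, and 80 of the 96 came from 1 library. The distal region with peaks in most libraries, 8 of 14, lay at chr18:37823280-37828256 between the start of Pcdhgc5, which is 3734 bp away, and the end of the cluster. It had H3K27ac in all 3 libraries, and these peaks ranked in the top 52.8%, 5.13% and 2.54% of replicates 1 to 3. It also had ISL1 in ISL1_26 replicate 1 and ISL1_70 replicate 1, both POU4F1 libraries and H3K27me3 replicate 1. The POU4F1 peaks did not overlap each other, at chr18:37826267-37826650 in replicate 1 and chr18:37823835-37824188 in replicate 2, and they ranked in the top 40.4% and the top 3.52%. The H3K27me3 replicate 1 peak was weak, with a −log10 q of 1.10 as the authors' caller gave it. No other distal region of the span was present in both POU4F1 libraries.

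Next came chr18:37177746-37180505, with peaks in 5 libraries, inside the alpha cluster between the start of Pcdhac2, 34068 bp away, and the shared end of the alpha genes. H3K27ac replicates 2 and 3 had peaks there in the top 3.13% and the top 1.31% of their lists, and ISL1_26 replicate 1, POU4F1 replicate 1 and H3K4me3 replicate 2 had 1 peak each. Of the distal regions, 6 were described, ranked by number of libraries and then by the mean within-list rank of the strongest peaks, and the other 4 of these lay beyond the gamma cluster, within Diaph1, a formin gene that adjoins it. Of these, chr18:37849233-37853455 had ISL1_26 replicate 1, POU4F1 replicate 1 and H3K27ac replicates 2 and 3. The region chr18:37877160-37878468 had ISL1_26 replicate 1, ISL1_70 replicate 1 and H3K27ac replicates 2 and 3. The region chr18:37855010-37856754 had ISL1_26 replicate 1, ISL1_70 replicate 1 and H3K27ac replicate 3, and its ISL1 peaks ranked in the top 9.28% and the top 16.6%. The last, chr18:37847079-37848599, had ISL1_26 replicate 1 and H3K27ac replicates 2 and 3. H3K27ac occurred at all 6 of these regions and POU4F1 at 3 of them. A ranking by number of libraries favours a target with several long lists, such as H3K27ac, so these counts are in part set by the choice. The regions ranked 5 to 9 all had 3 libraries, so the choice of 6 fell within a tie. Of the next ones, chr18:37835267-37837255 lay in the gamma cluster with ISL1_26 replicate 1 and H3K27ac replicates 2 and 3, while chr18:37646803-37648595 and chr18:37649067-37650108, between the beta and gamma clusters, had H3K27me3 and no H3K27ac. Enhancers of these clusters are known at the 3′ side of the alpha genes and beyond the gamma genes, and whether the regions coincide with them was not examined.

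The other protein-coding genes of the span, 7 in all, lie between, across or beside the clusters. Diaph1 (chr18:37843601-37935622) had H3K27ac at an end in all 3 libraries, H3K4me3 replicate 2, POU4F1 replicate 1 and ISL1_70 replicate 1. Hdac3 (chr18:37936971-37955015), a histone deacetylase, had H3K27ac replicates 2 and 3, H3K4me3 replicate 2, H3K27me3 replicate 1 and ISL1_70 replicate 1. Taf7 (chr18:37640491-37644204), a subunit of the general transcription factor TFIID that sits between the beta and gamma clusters, had H3K27ac replicate 2, H3K4me3 replicate 2 and ISL1_26 replicate 1. Slc25a2, beside Taf7, had no peak. The strand of these genes is not in the tables used, so either end counted, which gives them 2 windows where a member has 1.

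The non-clustered protocadherins, related adhesion genes that stand outside the clusters, offer the nearest family for comparison. H3K27me3 was present in at least 2 libraries at 16 of 57 clustered members and at 7 of 12 non-clustered genes, and H3K27ac at 2 of 57 and at 4 of 12, where all genes had 17.5% for H3K27me3 and 45.0% for H3K27ac. The strand of Pcdh1, Pcdh12 and Pcdh11x was not known here, so either end counted, which gives these genes more window than a member. Pcdh1 and Pcdh12 are among the 7 with H3K27me3, and Pcdh1 is among the 4 with H3K27ac. Pcdh1 had peaks in 8 libraries, Pcdh8 in 7 and Pcdh18 and Pcdh19 in 6 each. Pcdh1 and Pcdh18 carried H3K27me3 and H3K27ac in 2 libraries each. Pcdh8 carried H3K27me3 in 2 libraries and H3K27ac in 1, and Pcdh19 carried H3K27me3 in 2 and no H3K27ac.

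Of 12 genes for loop architecture and silencing of the clusters, 9 had H3K27ac and 3 had H3K27me3 in at least 2 libraries, where all genes had 45.0% for H3K27ac and 17.5% for H3K27me3. Setdb1, a histone H3K9 methyltransferase, had peaks in 9 libraries, and Smc3 and Smc1a, cohesin subunits, and Dnmt3b, a DNA methyltransferase that acts on alternate promoters, in 8 each. Dnmt3b carried H3K27me3 in 3 libraries and H3K27ac in 2, Setdb1 and Smc1a H3K27me3 in 2 and H3K27ac in 3, and Smc3 H3K27me3 in 1 and H3K27ac in 2. Ctcf had H3K27ac in 3 libraries and ISL1 in 2. Nipbl, Rad21 and Stag1 had no peak at the annotated gene ends used, which need not be their main promoters. Of the 4 genes for partners of the clustered protocadherin proteins, Marcks had H3K27ac in 3 libraries and ISL1 in 2, Ptk2 had H3K27ac in 3, and Ptk2b had H3K27me3 in 3 and no H3K27ac, while Axin1 had 1 H3K27ac peak.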

How the data were processed

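The deposited peak lists, 1 for each of 14 libraries without pooling, were used as given. Per the file headers (the peak names), MACS2 made the calls with a control; FastQC, Bowtie2, SEACR and build mm10 are named per the submitters' processing notes. For their versions, roles and options, and for the placing of reads that match several genes, the sources used here give nothing. The deposited columns give a score, a fold enrichment (a ratio), the −log10 of the p-value and of the q-value, and the summit as an offset, as the authors' caller wrote them; the lowest −log10 q in any list is about 1. A deeper library gives more peaks and moves every count.

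Genes came from a RefSeq table of GRCm38.p6, the build of mm10, without strand or exons. Alpha and gamma genes share their upper ends, so the lower end was taken as the start; beta genes were taken to lie on the same strand, as is known for mouse. The background was 17491 genes whose strand a RefSeq promoter table gives, none on chromosome 18. Other genes without strand, among them some of the listed genes and markers, were counted at either end, so they had more window than a member or a background gene. No sequence is printed.

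A peak overlapping 1 kb on each side of the start marked a gene; 2 libraries of a target made a replicated mark, with ISL1_26 and ISL1_70 as 1 target. Named members were all C-type genes and, in each of the alpha, beta, gamma A and gamma B groups, the 3 alternate genes with peaks in most libraries, ties by position; from each other gene list up to 4 were named by the same rank, and others named (such as Ctcf, Pcdhb15, Pcdhga6 and Pcdhgb6) were chosen after their values were seen. The members and lists were chosen with earlier results of these data known. Library shares were compared by two-sided exact permutation tests. The alternatives were windows of 500 bp and 2500 bp, a −log10 q of at least 2, summits in place of peaks, peaks extended by 250 bp, a distal limit of 5 kb, each library left out, a replicate block and, added after seeing the data, a window from the start to 2500 bp downstream. The steps were tested on simulated data and run in Python 3.11.15 with pandas 2.3.3, numpy 2.4.6 and scipy 1.17.1.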

Additional observations from a re-analysis of the deposited data

How the results depend on the processing

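Counts of members marked in at least 2 libraries rest on few libraries. For H3K27me3 the 16 members became 23 with the 2500 bp window and from the start to 2500 bp downstream. They became 10 when the summit had to lie in the window, and left-out libraries gave 1 to 16 (1 without replicate 2 or 3). H3K27ac gave 1 by summit in place of 2, and 3 with the 2500 bp window and from the start to 2500 bp downstream. With a library left out it gave 0 to 2 (0 without replicate 2 or 3). ISL1 gave 0 with the 500 bp window, by summit or from the start to 2500 bp downstream, 2 with the 2500 bp window, and 0 to 1 with a library left out (0 without ISL1_70 replicate 1 or 2). H3K4me3 gave 3 in place of 1 with the 2500 bp window and from the start to 2500 bp downstream, and its single libraries gave 7 to 17; single POU4F1 libraries gave 1 to 2. The share of C-type minus that of alternate members, in percentage points, was 13.1 for H3K27me3 and turned to -0.385 with the 2500 bp window and from the start to 2500 bp downstream, with 13.1 to 20.0 over left-out libraries. For H3K27ac it was 18.1 and turned to -1.92 by summit (0 to 18.1 over left-out libraries). For ISL1 it was 20.0, and 0 with the 500 bp window, by summit and from the start to 2500 bp downstream (0 to 20.0). Single H3K4me3 libraries gave 11.2 to 52.3 and single POU4F1 libraries -1.92 to 40.0. Distal replicated regions numbered 5 for H3K27ac and 0 for H3K27me3 beyond 5 kb, and 1 for POU4F1 with peaks extended by 250 bp. With a library left out they numbered 1 to 8 for H3K27ac (1 without replicate 2 or 3), 0 to 1 for H3K27me3 (0 without replicate 2 or 3) and 0 to 3 for ISL1 (0 without ISL1_26 replicate 1 or ISL1_70 replicate 1), and single libraries gave 4 to 4 for H3K4me3 and 8 to 10 for POU4F1. The cause of these changes was not tested, beyond the fewer libraries or narrower windows that define them.

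The difference of relative shares kept its direction under every alternative run, from 0.758 to 1.86 for H3K27me3 minus H3K27ac with a library left out (1.86 without H3K27me3 replicate 1, 0.758 without replicate 3) and from -0.183 to -0.0711 for ISL1 minus POU4F1 (-0.0711 without ISL1_70 replicate 3); the main value for ISL1 minus POU4F1, -0.141, was -0.261 by summit and -0.187 with the 500 bp window. With a replicate block it was 1.23 for H3K27me3 minus H3K27ac (exact sign-flip permutation over 3 pairs, p = 0.25, the smallest possible). Libraries with the same number did not deviate together (correlations of -0.036, 0 and -0.135 over members). The calls are sparse and the targets differ, so these values cannot decide whether such libraries share embryos or a batch. The labels do not say. Depth is unknown, and no count of 0 bounds a signal.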

Other observations

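Read-through loci that the annotation lists as protein-coding genes join alpha exons to the end of the gamma cluster. Gm38666 starts near Pcdha6 and had H3K27ac at an end in 2 libraries, and peaks in 1 library each of H3K27me3, H3K4me3 and ISL1. Gm37013 and Gm38667 had H3K27ac in 2 libraries and H3K27me3 and ISL1 in 1 each, and no H3K4me3. All 3 end where the gamma cluster ends. Their values were left out of the member counts.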
